A study of Mus musculus with 20 samples.

Results

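The genes described here encode the machinery that takes a new secretory protein into the endoplasmic reticulum, cuts off its signal peptide, attaches its first glycan and carries it to the Golgi and back. They were listed by name and known role, 51 in all, with earlier results of these data known. Of the 51, 50 had a probe set with that single symbol among the 18193 genes tested. Sec61g was not measured here. Where a gene had several probe sets, the brightest on average stood for it.

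The livers came from male C57BL/6J mice, an inbred strain, bought at 3 weeks of age and given a low-fat diet for 1 week before the study diets. For 4 weeks, 10 mice then ate a low-fat diet with 10% of energy from fat and 10 ate a high-fat diet with 45%, and all were 8 weeks old at the end. Both groups were fasted for 16 h before death, so every value is that of a fasted liver, with 1 biotin-labelled array per mouse. The labels call the mice of a diet biological replicates and give neither a cage nor a scan time, so no batch could be examined. The comparison shows how the liver scores of these genes differed between the diets.

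Hepatocytes secrete most plasma proteins. In the textbook scheme, the signal recognition particle stops a ribosome that is making a secretory protein and docks it on its receptor in the reticulum membrane, the Sec61 channel passes the chain through, signal peptidase trims it, and oligosaccharyltransferase adds a preassembled sugar tree. COPII coats then bud vesicles towards the Golgi, while COPI coats and KDEL receptors bring escaped resident proteins back. Many of these genes are known targets of the transcription factors XBP1 and ATF6, which act when unfolded protein builds up.

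On the high-fat diet 4 of the 50 genes rose and 0 fell. These were Rpn1 and Ddost, both subunits of oligosaccharyltransferase, Sec11a, a catalytic subunit of signal peptidase, and Srp72, a protein of the signal recognition particle. By limma with Benjamini-Hochberg adjustment over all 18193 genes, 1.71% of genes rose and 1.78% fell at an adjusted p of 0.05, whereas 8% of the secretory genes rose. At an unadjusted p of 0.05 by limma, 28 of the 50 were higher and 0 lower, against 8.94% and 8.01% of all genes. Of the 50, 43 lay above their low-fat mean, or 86%, against 52.5% of all genes.

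Sizes are standardised differences, the high-fat minus the low-fat mean in units of the SD between mice within a diet, because the deposited scores are compressed to a different degree in each probe set. The within-diet SD of the 50 genes ran from 2.55e-06 score units for Sec62, a partner of the Sec61 channel, to 0.00183 for Tmed9, a cargo receptor. A score difference is therefore not a fold change and cannot be set against that of another gene. The median standardised difference of the 50 genes was 1.04, and that of all genes 0.04. The direction of most single genes depended on how arrays were scaled: 23 of 47 genes lay above the low-fat mean with quantile normalisation (48.9%) and 16 of 50 with arrays centred on their medians (32%), settings that moved the median of all genes to -0.40 and -1.29. With quantile normalisation limma called 2 of the 47 genes higher and 0 lower, against 0.813% and 7.68% of all genes. With median centring it called 6 of the 50 higher and 19 lower, against 1.18% and 81.8% of all genes. The mean array median was 7.33e-05 above the low-fat one on the high-fat diet, and 34 of the 50 genes had a deposited difference smaller than that, including the 7 already below the low-fat mean; subtracting it turned the other 27 negative. After centring on standardised values, which gives every gene the same weight, 43 of 50 lay above, against 49.7% of all genes. In that setting 14 were called higher and 0 lower, against 3.44% and 3.95% of all genes. The median of all genes moved only to -0.01, so few signs could turn. Each gene had first been divided by its own SD from these data, which the fit then treats as nearly known. Rpn1 stood at 2.35 there, with a limma adjusted p of 2.52e-05 against 0.00483 in the main fit. The counts of that setting therefore cannot be set against those of the main fit.

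**Figure D1:**
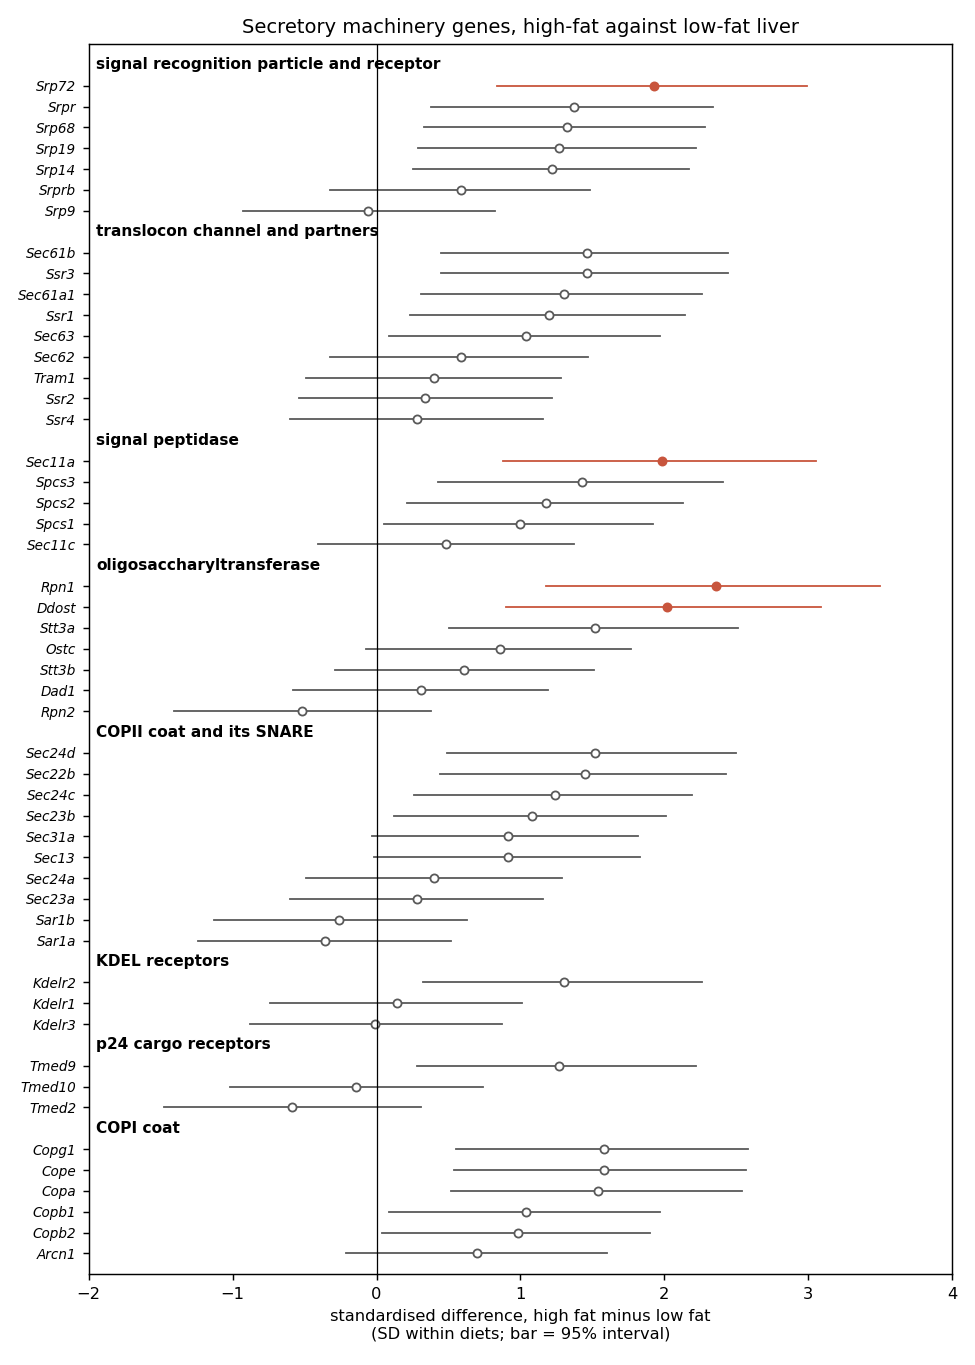
Standardised difference (high fat minus low fat, SD within diets) with its 95% interval for each of the 50 genes, grouped by role. Filled red points are the 4 genes past an adjusted p of 0.05, from Srp72 at 1.93 to Rpn1 at 2.36, and the lowest of all is Tmed2 at -0.59; under quantile normalisation and median centring many points change side, among the filled ones Sec11a (-0.60, quantile) and Srp72 (-0.31, median centring).

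In oligosaccharyltransferase 2 of 7 genes rose, while the median of its genes, 0.86, was below that of the 50. Of the 7 genes 6 lay above the low-fat mean, against 5 with quantile normalisation and 4 with median centring, where 2 were called higher and 3 lower. Rpn1, which encodes ribophorin I, a subunit that presents protein chains to the enzyme, had scores in the low-fat mice from 10.49858 to 10.50014 with a median of 10.49929. In the high-fat mice its scores ran from 10.49933 to 10.50207 with a median of 10.50092. The diets overlapped, but 8 of 10 high-fat mice lay above all low-fat mice, and the high-fat mouse was higher in 95 of the 100 pairs. Rpn1 rose by 2.36 SD (95% interval 1.18 to 3.50, limma adjusted p = 0.00483), and it remained higher under quantile normalisation (2.18) and median centring (2.21). The probe set used for Rpn1 carries the suffix x_at, which marks possible cross-hybridisation. Of the 5 other probe sets of Rpn1, 4 passed over all probe sets (1.75 to 2.50). These carry the suffix x_at too, apart from that at 1.75 (limma adjusted p = 0.0411). It carries a_at, a suffix for transcripts of the same gene. The remaining probe set, which carries neither suffix, stood at 0.30 (adjusted p = 0.807).

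Ddost encodes a subunit of the same enzyme that helps to hold the catalytic core together. Its low-fat scores ran from 9.24831 to 9.24935 with a median of 9.24902, and its high-fat scores from 9.24904 to 9.25130 with a median of 9.24982. All but 1 of the high-fat mice lay above the highest low-fat mouse. Ddost rose by 2.02 SD (0.90 to 3.09, limma adjusted p = 0.0134), but stood at 0.43 after quantile normalisation (adjusted p = 0.555) and at 1.89 after median centring (adjusted p = 0.0101). The high-fat SD of Ddost, 0.00071, was larger than its low-fat SD of 0.000303, and likewise for Rpn1 (0.000815 and 0.000447).

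The other 5 measured subunits of oligosaccharyltransferase did not pass. Stt3a, the catalytic subunit that works beside the translocon, stood at 1.52 (0.50 to 2.51, adjusted p = 0.0617), with the high-fat mouse higher in 91 of 100 pairs. Its paralogue Stt3b, which glycosylates sites that Stt3a skipped, stood at 0.61 (-0.29 to 1.51). Ostc, which joins the Stt3a form of the enzyme to the translocon, stood at 0.86 (-0.07 to 1.77), Dad1 at 0.31 (-0.58 to 1.19) and Rpn2, ribophorin II, at -0.52 (-1.41 to 0.38). The difference between Stt3a and Stt3b was not tested.

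**Figure D2:**
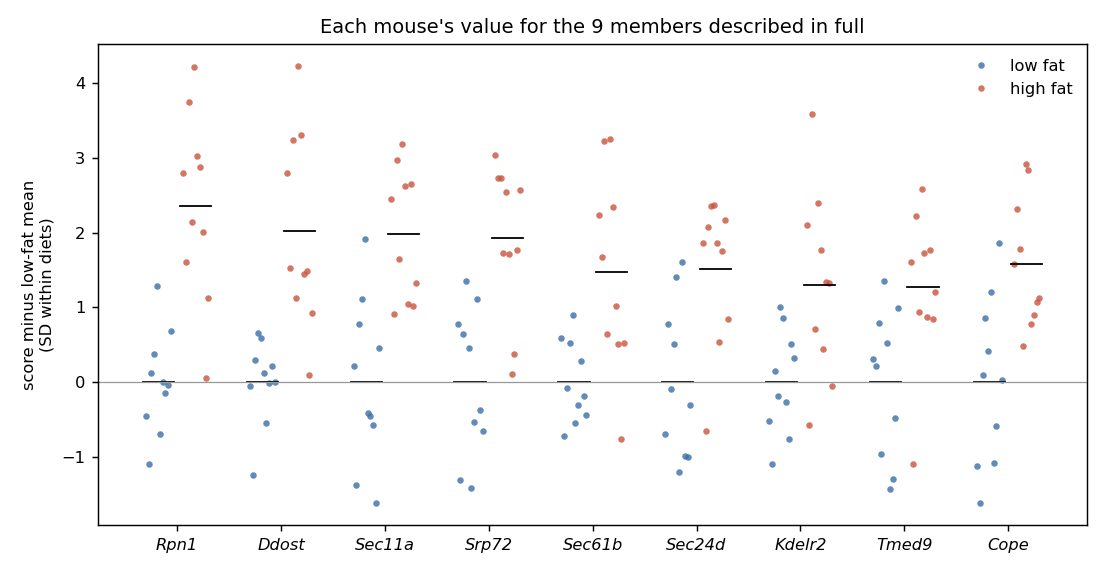
Each point is 1 mouse, as its score minus the low-fat mean in units of the SD within diets, with low-fat mice in blue, high-fat mice in red and bars at the group means. The 4 genes on the left passed the test and the other 5 are the leading genes of the remaining roles; every gene shows overlap between the diets, and Ddost has 9 of 10 high-fat mice above all low-fat mice.

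Because Rpn1 and Ddost rose in the main fit, the 150 bases before their annotated starts are shown, taken from RefSeq promoter windows of assembly GRCm38.p6. Capitals mark the short elements CCAAT and CCACG, searched on both strands, which together at a fixed spacing make up the ER stress element. The Rpn1 stretch lies at chr6:88084323-88084472 on the plus strand and the Ddost stretch at chr4:138304588-138304737 on the plus strand.
Rpn1: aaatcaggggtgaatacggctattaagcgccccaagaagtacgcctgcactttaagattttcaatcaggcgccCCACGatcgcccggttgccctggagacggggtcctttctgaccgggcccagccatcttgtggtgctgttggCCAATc
Ddost: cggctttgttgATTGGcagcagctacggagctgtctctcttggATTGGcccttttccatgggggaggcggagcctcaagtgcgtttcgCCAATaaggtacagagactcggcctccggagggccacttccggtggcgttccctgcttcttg
Rpn1 has 1 CCACG and 1 CCAAT in this stretch, with the CCAAT nearer to the start. Ddost has 3 CCAAT elements, of which 2 lie on the opposite strand and read ATTGG, and no CCACG within it. In neither do they stand at the spacing of the ER stress element. Such short elements are common. In whole promoter windows of 300 bases, CCAAT was in 41.1% of all genes and 46.2% of the secretory genes with a window. CCACG was in 35.5% and 66.7% of them.

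Among the genes that deliver ribosomes to the membrane, 1 of 7 rose and 6 of 7 lay above the low-fat mean (5 of 7 after quantile normalisation, 1 of 7 after median centring). Srp72 had low-fat scores from 9.866001 to 9.866079 with a median of 9.866042, and high-fat scores from 9.866044 to 9.866126 with a median of 9.866101. In 8 of 10 high-fat mice the score was above every low-fat mouse. Srp72 rose by 1.93 SD (0.84 to 2.99, limma adjusted p = 0.0176), but did not pass after quantile normalisation (0.40, adjusted p = 0.593) or median centring (-0.31). Its other probe set gave a larger value, 2.66 (adjusted p = 0.00312 over all probe sets).

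Srp68, which binds the particle's RNA together with Srp72, stood at 1.32 (0.33 to 2.28, adjusted p = 0.107), and Srp19, which helps the particle to assemble, at 1.27 (0.29 to 2.22). Srp14 and Srp9 pair up in the domain that pauses translation. Srp14 stood at 1.22 (0.25 to 2.17) and all 10 high-fat mice were above its low-fat median, while Srp9 stood at -0.06 (-0.93 to 0.82). Of the receptor, the docking subunit Srpr stood at 1.37 (0.38 to 2.34, adjusted p = 0.092) and the membrane anchor Srprb at 0.59 (-0.32 to 1.48).

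None of the 9 measured translocon genes passed, although all 9 lay above the low-fat mean; quantile normalisation left 5 of 9 above it and median centring 4 of 9. At an unadjusted p of 0.05, 5 of the 9 were higher by limma, against 8.94% of all genes. Sec61b, a small tail-anchored subunit of the channel, had the smallest p of the group. Its low-fat scores ran from 10.38775 to 10.38842 with a median of 10.38799, and its high-fat scores from 10.38773 to 10.38939 with a median of 10.38860. The lowest of all 20 mice was a high-fat mouse, yet 6 high-fat mice lay above every low-fat mouse. Sec61b stood at 1.46 (0.45 to 2.44, adjusted p = 0.0704). The pore-forming Sec61a1 stood at 1.30 (0.31 to 2.26, adjusted p = 0.112), and its 5 other probe sets all lay above the low-fat mean, from 0.26 to 1.58.

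Sec63, which recruits the BiP chaperone to the channel, stood at 1.04 (0.09 to 1.97) and its partner Sec62 at 0.59 (-0.32 to 1.47). Tram1, a membrane protein that contacts entering chains, stood at 0.40 (-0.49 to 1.28). The 4 subunits of the translocon-associated protein complex, which assists some substrates and sits beside oligosaccharyltransferase, spread from 0.28 to 1.46. Ssr3 was the highest of them (0.45 to 2.44, adjusted p = 0.0705), followed by Ssr1 at 1.20 (0.23 to 2.14), Ssr2 at 0.34 and Ssr4 at 0.28. The other probe sets of Ssr4 stood at -0.32 and -0.59, and those of Ssr1 at 1.16, 0.29 and -0.22. Those of Sec62, Sec63, Tram1 and Ssr3 all lay above the low-fat mean.

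In the signal peptidase complex 1 of 5 genes rose and 5 of 5 lay above the low-fat mean (2 of 5 after quantile normalisation, 3 of 5 after median centring). Sec11a had low-fat scores from 10.700779 to 10.700926 with a median of 10.700842, and high-fat scores from 10.700884 to 10.700979 with a median of 10.700932. The overlap came from the upper low-fat mice, since 8 of 10 low-fat mice lay below every high-fat mouse. Sec11a rose by 1.98 SD (0.88 to 3.05, limma adjusted p = 0.015), but stood at -0.60 after quantile normalisation and 0.11 after median centring. Another probe set of Sec11a stood at 0.91 (adjusted p = 0.338 over all probe sets). Its paralogue Sec11c, the alternative catalytic subunit, stood at 0.48 (-0.41 to 1.37), and the difference between them was not tested. The accessory subunits Spcs3 (1.43, 0.43 to 2.41, adjusted p = 0.0765), Spcs2 (1.18, 0.21 to 2.13) and Spcs1 (1.00, 0.05 to 1.92) did not pass. Other probe sets stood at -0.18 and -0.00 for Spcs1, at -0.00 for Sec11c and at 1.18 for Spcs2.

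Of the 10 genes of the COPII coat and its cargo SNARE 0 passed. At an unadjusted p of 0.05 by limma 4 were higher and 0 lower, against 8.94% and 8.01% of all genes. Of these genes 8 of 10 lay above the low-fat mean, against 1 of 8 with quantile normalisation and 2 of 10 with median centring. Sec24d, a cargo-binding coat protein, had low-fat scores from 10.765987 to 10.766089 with a median of 10.766023, and high-fat scores from 10.766007 to 10.766116 with a median of 10.766098. It stood at 1.52 (0.49 to 2.50, adjusted p = 0.0623), and 7 high-fat mice were above all low-fat mice. Its sign turned after quantile normalisation (-1.10) and median centring (-0.24).

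The coat paralogues spread widely. Besides Sec24d, Sec24c stood at 1.24 (0.26 to 2.19) and Sec24a at 0.40 (-0.49 to 1.29). Sec23b, the inner coat subunit that activates the small GTPase, stood at 1.08 (0.12 to 2.01) and Sec23a at 0.28 (-0.60 to 1.16). The GTPases that start coat assembly were at -0.36 (-1.24 to 0.52) for Sar1a and -0.26 (-1.13 to 0.63) for Sar1b. Another probe set of Sar1a had the opposite sign, at 1.14 (limma adjusted p = 0.2 over all probe sets). The outer coat genes Sec13 and Sec31a both stood at 0.91, and Sec22b, the SNARE that the coat loads, at 1.45 (0.44 to 2.43, adjusted p = 0.073). Differences between paralogues were not tested.

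All 6 genes of the COPI coat lay above the low-fat mean, from Arcn1 at 0.70 to Copg1 at 1.58, but 2 of 6 with quantile normalisation and 1 of 6 with median centring, and 0 of 6 passed. At an unadjusted p of 0.05, 5 of the 6 were higher by limma, against 8.94% of all genes. Cope, the epsilon subunit, had low-fat scores from 9.922416 to 9.922686 with a median of 9.922546, and high-fat scores from 9.922579 to 9.922767 with a median of 9.922646. All 10 high-fat mice were above its low-fat median, and 7 low-fat mice were below every high-fat mouse. Cope stood at 1.58 (0.54 to 2.57, adjusted p = 0.0536), Copg1 at the same size (0.55 to 2.58, adjusted p = 0.0539) and Copa at 1.54 (0.52 to 2.54, adjusted p = 0.0581). Copb1 stood at 1.04 (0.09 to 1.97) and Copb2 at 0.98 (0.04 to 1.90). The direction was not the same in every probe set of these genes. Other probe sets lay below the low-fat mean for Arcn1 (-0.71), Copb2 (-0.27), Copa (-0.21) and Copg1 (-0.14). Further ones of Arcn1 (1.45) and Copg1 (0.44) lay above it.

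KDEL receptors return chaperones that carry the KDEL tail to the reticulum, and 0 of the 3 genes passed. At an unadjusted p of 0.05 by limma 1 was higher and 0 lower, against 8.94% and 8.01% of all genes. Kdelr2 had low-fat scores from 10.924966 to 10.924996 with a median of 10.924981 and high-fat scores from 10.924974 to 10.925032 with a median of 10.925000. It stood at 1.30 (0.32 to 2.26, adjusted p = 0.114), and at -1.02 after median centring (adjusted p = 0.041), where all 3 KDEL receptor genes were called lower, as were 81.8% of all genes. Kdelr1 stood at 0.14 (-0.74 to 1.01) and Kdelr3 at -0.01 (-0.88 to 0.87). The scores of Kdelr3, near 6.31, and of Tmed2, near 5.94, lay below all array medians, which ran from 6.56702 to 6.5672, and the table gives no call of detection.

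The p24 genes encode cargo receptors that cycle between the reticulum and the Golgi, and 0 of 3 passed. At an unadjusted p of 0.05 by limma 1 was higher and 0 lower, against 8.94% and 8.01% of all genes. Tmed9 had low-fat scores from 8.6674 to 8.6724 with a median of 8.6705 and high-fat scores from 8.6680 to 8.6747 with a median of 8.6726. It stood at 1.27 (0.28 to 2.22, adjusted p = 0.125), with 9 of 10 high-fat mice above the low-fat median. Without high-fat replicate 2, which lay apart from the other high-fat mice, it stood at 1.84 (adjusted p = 0.029). Tmed10 stood at -0.14 (-1.02 to 0.74) and Tmed2 at -0.59 (-1.48 to 0.31).

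No gene of the 50 separated the diets completely, and 0.0934% of all genes had every high-fat mouse above every low-fat mouse. A gene's other probe sets gave a second reading for 31 of the 50 genes. Of these 56 other probe sets 42 lay above the low-fat mean in the deposited scores and 6 passed over all probe sets. Those 6 were 4 of Rpn1, 1 of Srp72 and 1 of Srp14 (1.71, limma adjusted p = 0.0463). The other probe sets were not examined under quantile normalisation or median centring, and no share over all probe sets is given here.

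The mice of the high-fat diet differed among themselves. Averaged over the 50 genes, low-fat mice ran from -0.59 to 0.63 SD around their own mean, with a median of 0.02, and high-fat mice from 0.13 to 2.00 SD, with a median of 0.64. High-fat replicates 5, 3, 6 and 1 were the highest (2.00, 1.84, 1.64 and 1.34), followed by replicate 8 at 0.86, while the other 5 lay between 0.13 and 0.42, inside the low-fat range. The number of genes above the low-fat mean in a mouse ran from 13 to 39 in the low-fat group and from 30 to 48 in the high-fat group. The same mean over all genes stayed between -0.13 and 0.12 in all 20 mice. In 14 ER chaperone genes the means of the high-fat mice ran from 0.92 to 4.02, and replicates 3, 5 and 6 were again the 3 highest.

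**Figure D3:**
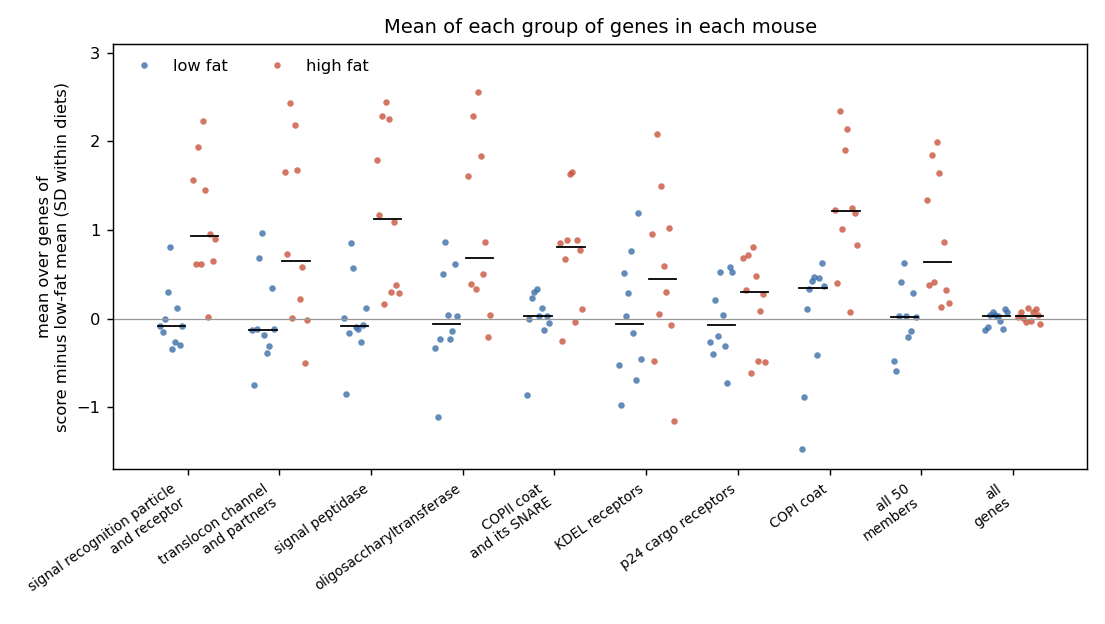
Mean over the genes of each role, over all 50 genes and over all genes tested, for each mouse, as score minus low-fat mean in units of the SD within diets; bars are group medians. Over the 50 genes the high-fat mice spread from 0.13 to 2.00 and the low-fat mice from -0.59 to 0.63, while the mean over all genes stays near 0 in every mouse.

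Some array measures moved with the diets. Of 24 probe sets for poly-A spike-in controls, RNA added in fixed amounts, 10 were lower and 0 higher on the high-fat diet at an unadjusted p of 0.05 by limma. Several of the 24 probe sets read the same spike-in RNA (dap, lys, phe or thr), so the 10 are not separate readings. The mean of the 24 was taken in SD units centred on all 20 arrays, not on the low-fat mean. It ran from 0.15 to 0.98 SD in low-fat mice and from -2.44 to 1.16 in high-fat mice. The spike-in means of high-fat replicates 7, 5, 4 and 1 were the lowest (from -2.44 to -1.53), and the means of these mice over the 50 genes were 0.13, 2.00, 0.42 and 1.34, the lowest and the highest of the diet among them. With the spike-in mean as a covariate 4 of the 50 genes rose, the same 4 as in the main fit. Of all 18193 genes 220 rose and 191 fell in that fit, against 312 and 323 in the main fit. The part of the spike-in shift in the diet differences was not tested.

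Other cell types rich in this machinery were examined through their markers. Of 9 measured markers of pancreatic acinar cells, 1 rose, Cela1 (1.80, adjusted p = 0.0265 by limma). The mean of the 9 in SD units ran from -0.52 to 0.58 in low-fat and from -0.76 to 0.81 in high-fat mice. Cpa1, a digestive enzyme specific to those cells, stood at 0.42 (-0.47 to 1.30) and Prss2, a trypsinogen, at -0.47 (-1.35 to 0.43). Of 10 plasma and B cell markers Derl3 rose (1.83, adjusted p = 0.024), Sdc1 (-1.81) and Tnfrsf17 (-1.72, but 0.43 after quantile normalisation) fell, and the joining chain gene Jchain stood at -0.63 (-1.52 to 0.28). The mean of the 10 ran from -0.86 to 0.39 SD in low-fat and from -0.96 to 0.23 SD in high-fat mice. Sdc1 had a score of 10.74, the highest of its list, with Ighm next at 7.95. Tnfrsf17 (5.88), Jchain (6.11) and the acinar Cpa1 (6.17) were among the markers whose scores lay below all array medians. Scores never reach 0, so 0 markers of any list were at 0. Of 7 hepatocyte markers 0 passed in limma's moderated test. Alb, the albumin gene, had a score of 14.82, near the top of the range. Ttr, the transthyretin gene, stood at -3.12 (-4.43 to -1.76), and every high-fat mouse lay below every low-fat mouse. Its moderated adjusted p was 0.224, while without moderation, which raises the variance of genes with a very small SD, it was 0.000942. Of the other lists 0 of 6 T and natural killer, 10 macrophage, 8 endothelial and 10 stellate markers passed (at an unadjusted p of 0.05 by limma, 1 endothelial marker was higher and 1 lower, 2 stellate markers were higher, and 0 of the T, natural killer and macrophage markers differed), and 1 of 6 bile duct markers, Krt23 (2.09, adjusted p = 0.0112). The part of any of these in the diet differences was not tested, and in bulk liver more cells of a type and more RNA per cell cannot be told apart.

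Further genes of the same route were taken from a list made by their known roles, also with earlier results of these data known. Outside the lists of ER chaperones and regulators, 10 of 109 measured genes (9.17%) rose and 1 fell, against 1.71% and 1.78% of all genes. The median of the 109 was 0.34, and they include Hyou1 and Sil1, which serve the BiP chaperone. Next to the translocon, Hyou1, which exchanges the nucleotide of BiP, rose by 2.25 SD (1.09 to 3.37, adjusted p = 0.00684 by limma, and 2.11 and 2.15 after quantile normalisation and median centring). Sil1, with the same role, rose by 1.76 (adjusted p = 0.0306), but stood at -0.91 and -0.60 in those settings. Magt1, an oxidoreductase subunit of the Stt3b form of oligosaccharyltransferase, was the 1 of 6 further genes listed with that enzyme to rise (1.88, 0.80 to 2.93, adjusted p = 0.0203).

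Of 24 genes that build the lipid-linked sugar, 2 rose and 0 fell. They were Alg8, a glucosyltransferase (1.87, adjusted p = 0.021 by limma), and Alg3, a mannosyltransferase (1.61, adjusted p = 0.0491), and each lost its size under other scaling (-0.08 and 0.07 after quantile normalisation). Of 22 tethers and SNAREs 3 rose and 1 fell. Stx5a, the Golgi syntaxin on which these vesicles fuse, rose by 2.41 (1.22 to 3.57, adjusted p = 0.00423), with the high-fat mouse higher in 99 of 100 pairs, but stood at -1.67 after quantile normalisation. Trappc2 (1.97) and Trappc6a (1.72) rose and Trappc4 (-1.62, adjusted p = 0.0495) fell, all subunits of 1 tethering complex. Alg3 and Trappc4 did not pass without moderation of the variances. After median centring Trappc2 (-0.69) and Trappc6a (-0.80) were negative.

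Sec16a, which organises the exit sites for COPII vesicles, rose by 1.78 (adjusted p = 0.0292 by limma) as 1 of 19 further genes of that step, and Arf4, a GTPase of the COPI cycle, rose by 1.70 (adjusted p = 0.0366) as 1 of 16, but both were negative after median centring (-0.86 and -0.65). Of 10 genes of the EMC, a separate membrane complex that inserts other proteins, 0 passed by limma, and 2 lay above the low-fat mean, with a median of -0.25. At an unadjusted p of 0.05 by limma, 3 were lower and 0 higher, against 8.01% and 8.94% of all genes. After quantile normalisation 3 of 8 lay above and 1 was called lower, against 29.5% and 7.68% of all genes. After median centring 0 of 10 lay above and 10 were called lower, against 5.01% and 81.8% of all genes. In the main fit Emc8 had the lowest value of the EMC genes (-1.12, -2.06 to -0.16). Of 13 regulators 1 rose, Xbp1 (2.49, 1.28 to 3.67, adjusted p = 0.00339 by limma). At an unadjusted p of 0.05 by limma 7 were higher and 0 lower, against 8.94% and 8.01% of all genes. Of the 13, 12 lay above the low-fat mean, with a median of 1.09. The 1 below it was Atf6, at -0.42 (-1.30 to 0.47).

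In the ER chaperones, the proteins that fold what the translocon delivers, 13 of 14 genes rose, with a median of 2.61 (10 of 11 were called higher and 0 lower after quantile normalisation, 12 of 14 higher and 1 lower after median centring), and P4hb did not pass (1.39, 0.39 to 2.36, adjusted p = 0.0902 by limma). Without moderation of the variances 12 rose, as Dnajb9 (1.60) no longer passed (adjusted p = 0.0586). Of these 14, the lowest value was thus above the median of 1.04 of the secretory genes, whose highest was 2.36. The difference between the lists was not tested.

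**Figure D4:**
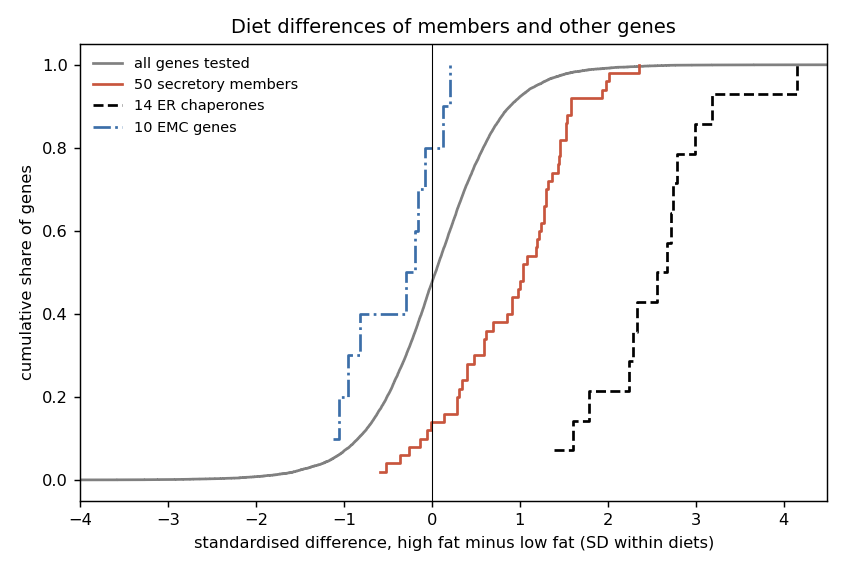
Cumulative share of genes against the standardised difference (high fat minus low fat, SD within diets) for all 18193 genes, the 50 secretory genes, 14 ER chaperones and 10 EMC genes. The curve of the secretory genes, with a median of 1.04, runs between that of all genes (0.04) and that of the chaperones (2.61); after median centring the medians of secretory and all genes are -0.66 and -1.29.

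The promoter motifs were chosen with the results known. Promoter windows of RefSeq, 300 bases long from 250 before the annotated start, were found for 39 of the 50 measured genes and 13 of the 14 chaperones. The ER stress element was searched as CCAAT and CCACG with 9 bases between them, on either strand. It was in 0 of the 39 secretory genes and in 7 of the 13 chaperones, and in 0.137% of all 27025 genes with a window. The UPR element, known as a binding sequence of XBP1 and ATF6, was searched as TGACGTGG on either strand, where the opposite strand reads CCACGTCA and so overlaps CCACG. It was in 5 of the 39 secretory genes, or 12.8%, in 0 of the 13 chaperones and in 0.714% of all genes. Its core ACGTG was in 23 of the 39 and in 21.8% of all genes. The genes with a window were neither limited to those measured on the arrays nor matched to the secretory genes for base composition.

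These 5 genes are shown with the element in capitals and some of its flanks, in GRCm38.p6, together with the ER stress element of Hspa5 for contrast. They lie at chr3:123267434-123267495 on the plus strand for Sec24d, chr12:59011998-59012047 on the minus strand for Sec23a, chr7:114254681-114254744 on the minus strand for Copb1, chr9:98563688-98563750 on the plus strand for Copb2, chr15:79516342-79516407 on the plus strand for Kdelr3 and chr2:34772015-34772053 on the plus strand for Hspa5.
Sec24d: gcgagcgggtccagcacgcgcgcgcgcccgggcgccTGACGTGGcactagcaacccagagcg
Sec23a: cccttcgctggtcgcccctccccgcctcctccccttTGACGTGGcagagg
Copb1: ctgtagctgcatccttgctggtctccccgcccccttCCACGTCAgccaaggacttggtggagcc
Copb2: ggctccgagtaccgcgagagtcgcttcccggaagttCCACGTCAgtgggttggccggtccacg
Kdelr3: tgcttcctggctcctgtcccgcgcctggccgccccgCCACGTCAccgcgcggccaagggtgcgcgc
Hspa5: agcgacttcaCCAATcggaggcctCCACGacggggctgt
In Sec24d, Copb1 and Kdelr3 the element ends 19 to 23 bases before the start, while in Copb2 it reaches the start and in Sec23a it lies just after it. None of these 5 passed the test, and their standardised differences ran from -0.01 for Kdelr3 to 1.52 for Sec24d. None of the 4 genes that rose, of which all have a window, holds the UPR element or the ER stress element in it. These are matches of letters, and binding was not measured.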

How the data were processed

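Livers of 20 mice were measured on Affymetrix arrays, per the labels' protocols from 200 ng of total RNA with a 3′ labelling kit. The authors deposited 1 score per probe set and array; its summary and normalisation steps are not given in the sources used here. Scores of the 45037 non-control probe sets run from 5.18 to 15.0, like log2 intensities, but their median SD over arrays is 1.17e-05. The planned design had assumed log-like values; its test was kept, and sizes were standardised, with intervals from the noncentral t distribution.

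By the platform annotation, 34945 probe sets had 1 symbol, 932 several and 9160 none; 34741 matched GRCm38.p6 genes by identifier. The limma package (version 3.58.1, R 4.3.3; functions lmFit, eBayes; two-sided and without covariates; prior degrees of freedom 0.724) was fitted to 18193 genes with no filter on low values, after a check on simulated data. The number of arrays limits precision.

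The members and lists were chosen with earlier results of these data known. Scores by mouse are given for members past the threshold and, in each role with none, for the member with the smallest p; in further lists at most 4 genes past it are named. Other genes named from those lists were chosen after their values were seen. Alternatives were quantile normalisation, 2 kinds of array centring, no moderation, a variance trend with robust fitting, averaged probe sets and the upper genes by mean. Others were omission of probe sets with the suffixes a_at, s_at or x_at, a spike-in covariate, the replicate block and array weights. An exact rank sum test, a threshold of 0.01 and omission of each array were also used.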

Additional observations from a re-analysis of the deposited data

Results flagged for a closer look

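A gap test for a single mouse far from its group was run in 100 groups of 10 mice, both diets of the 50 genes, where chance gives about 1 in 20, and it found 2. For Tmed9, the score of high-fat replicate 2 was the lowest by a gap of 0.527 of the group's range; leaving it out, Tmed9 stood at 1.84 (limma adjusted p = 0.029). For Sec13, the same was true of low-fat replicate 1 (0.481); leaving it out, Sec13 stood at 0.81 (limma adjusted p = 0.395).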

How the results depend on the processing

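The number of secretory genes called higher was 4 in the main fit. It was 2 after quantile normalisation (3 genes left with 1 value gave no test), 14 after centring on standardised values, 12 among the upper genes by mean, 7 with array weights and 1 at a threshold of 0.01. Of all genes, 312 were called higher in the main fit, and 141, 625, 380, 335 and 105 in these settings. The settings tested 18193 genes, except quantile normalisation (17333) and the upper genes (9097). The counts of 14 and 625 came from scores already divided by each gene's own SD, so they cannot be set against the main fit. The number of secretory genes called lower was 0 except after median centring, where it was 19, against 81.8% of all genes. Over all members, 19 of 47 turned negative and 1 positive after quantile normalisation, and 27 of 50 turned negative after median centring. Among the 9 with scores by mouse, signs turned for Sec11a (-0.60) and Sec24d (-1.10) after quantile normalisation, and for Srp72 (-0.31), Sec24d (-0.24) and Kdelr2 (-1.02) after median centring. Fits that left out 1 array gave 4 to 8 genes higher and 0 to 0 lower, and the 4 genes passed in all 20. The count was 8 without low-fat replicate 9 or high-fat replicate 2 or 9, and 7 without high-fat replicate 4. Of all 18193 genes, 285, 349, 306 and 255 were called higher in these fits. Without probe sets that carry the suffixes a_at, s_at or x_at, Rpn1 stood at 0.30 (limma adjusted p = 0.802). Same-numbered mice of the diets correlated from -0.159 to 0.26 in their deviations from the diet means, and 2 of 10 pairs lay above 0.1. These pairs were not compared with differently numbered ones, so whether the replicate numbers pair the mice cannot be told. With the replicate block 4 genes were called higher, 3 of them the same, against 237 of all 18193 genes. Srp72 stood at 1.88 there (limma adjusted p = 0.0557). The causes of these shifts were not tested, apart from the subtraction of array medians described with the results.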
